A study of Mus musculus with 18 samples.

Results

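The genes described here are 34 structural genes of the extracellular matrix other than collagens: the glycoproteins and proteoglycans that fibroblasts secrete. They were selected by gene symbol from the 22019 genes of the deposited expression table, by a list of names rather than by a threshold on measured values. By role, 13 encode fibronectin and elastic fibre proteins (Fn1, Fbn1, Fbn2, Eln, Fbln1, Fbln2, Fbln5, Efemp1, Efemp2, Emilin1, Mfap2, Mfap4, Mfap5), 9 are grouped here as matricellular, most of them proteins that act on cells or mineral rather than bearing load (Sparc, Thbs1, Thbs2, Postn, Tnc, Tnxb, Matn2, Spp1, Mgp), 7 are proteoglycan core proteins (Bgn, Dcn, Lum, Fmod, Aspn, Vcan, Hspg2) and 5 belong to basement membranes (Lamb1, Lamc1, Lama4, Nid1, Nid2). A gene was tested if it stood above the lowest value of the table in at least 3 libraries, which held for 33 of the 34 members and for 16021 genes in all.

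The cells were NIH 3T3, a line of mouse embryonic fibroblasts, carrying a doxycycline-inducible construct in a Tet-ON background. SUN1L is the lumenal domain of the SUN1 protein, tagged with HA and kept in the endoplasmic reticulum (SS-HA-Sun1L-KDEL). It displaces the LINC complexes that join the cytoskeleton to the nuclear lamina across the nuclear envelope. The control, KDEL, is GFP with the same retention signal (SS-GFP-KDEL). All cells received 1 μg/ml doxycycline for 48 hr on fibronectin-coated polyacrylamide gels. The 4 untreated groups were SUN1L and KDEL cells on soft (1 kPa) and on stiff (308 kPa) gels, with 3 libraries each. KDEL cells on 308 kPa were also kept for 48 hr with 25 μM of the inhibitor Y27, in 3 libraries, or with 10 μM blebbistatin, an inhibitor of non-muscle myosin II, in 2 libraries. Another library of empty vector cells on 308 kPa carries contradicting inhibitor labels and entered no test. Each construct stands for a single transduced and selected cell population, and the KDEL cells had in addition been sorted by fluorescence, so a difference between SUN1L and KDEL cells and a difference between these populations cannot be told apart. The study's methods call the libraries of a condition biological replicates, the labels do not say how their cultures were separated, and p-values measure the spread between these libraries. RNA was taken from whole cultures, in which fewer cells of a type and less RNA per cell cannot be told apart.

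Fibroblasts assemble fibronectin into fibrils by pulling on it through integrins, and other matrix proteins are laid down on that network. Fibrillins, fibulins, microfibril-associated proteins and emilin build the microfibrils on which elastin is deposited, laminins and nidogens with perlecan form basement membranes, and small leucine-rich proteoglycans such as biglycan and decorin bind collagen fibrils and growth factors. Matricellular proteins such as thrombospondins, tenascins, periostin and SPARC tune adhesion and matrix assembly. Since this assembly depends on cell contraction, the series allows the question of whether these genes follow gel rigidity, the LINC complex or myosin activity.

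Values are the authors' normalized signal, a linear quantity per gene and library whose lowest value is 1. The summed signal of a library divided by the smallest step between low values gave between 12671800 and 19464200 read pairs, so a read pair was worth 1.70 to 2.49 signal units. Sun1 stood at 38452 to 82617 in the SUN1L libraries and at 2785 to 3799 in all others, in keeping with the labels. The fibroblast markers Vim, Thy1, Pdgfra, Pdgfrb, S100a4, Col1a1, Col1a2 and Prrx1 were above the lowest value in all 18 libraries, with a sum of 210716 to 527170, while the summed epithelial, blood, muscle and adipocyte lists reached at most 1169, 311, 734 and 54.1, and Krt18, Cd3e and Myod1 were listed at 1 throughout. The endothelial list summed to between 334 and 3979, most of it Tek. By serial number the libraries form 3 runs, and each run has 1 library of nearly every group: libraries 3 to 12, 15 to 24 and 27 to 36. Run 3 has no blebbistatin library. In libraries 3 (SUN1L, 1 kPa), 7 (SUN1L, 308 kPa) and 8 (KDEL, 308 kPa) 10 genes of cell division averaged 8.78, 9.16 and 9.51 on the log2(signal + 1) scale, against 11.8 to 12.5 in the other libraries. Values without these 3 libraries are an alternative chosen after the data were seen. They are given only for Fbln5 with SUN1L and for Emilin1, Matn2, Efemp1 and Postn with rigidity. The other results of the untreated groups, the interaction among them, include these libraries and have no such value.

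In untreated KDEL cells the members spanned the whole range of the table. Fn1, fibronectin, had the second highest signal of all genes, with a mean of 293601 ± 96206 (SD, n = 6), and held 46.3% of the summed signal of the 34 members. Bgn (biglycan) followed with 62549 ± 3085, Fbln2 (fibulin-2, a partner of fibronectin and microfibrils) with 62178 ± 4695 and Sparc (SPARC, a collagen-binding matricellular protein) with 36246 ± 5627. Bgn and Fbln2 did not differ beyond their spread. Next came Thbs1 (thrombospondin-1, an activator of latent TGF-beta) at 23515 ± 8254, Hspg2 (perlecan) at 21005 ± 5171, Lamb1 (laminin beta-1) at 20963 ± 900.4 and Efemp1 (fibulin-3) at 18269 ± 5367, and the order among these 4 lay within their spread. The 8 genes together made up 84.8% of the members' signal.

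The order of the rest was flatter. Means of 10000 or more were also found for Nid1 (nidogen-1), Fbn1 (fibrillin-1, the main microfibril protein), Vcan (versican, a large proteoglycan) and Lamc1 (laminin gamma-1), so that 12 members passed that level. A further 11 members lay between 1000 and 10000, from Fbln5 at 8186 ± 2849 down to Emilin1 at 1109 ± 278.2, and among them were Tnc (tenascin-C) at 6988 ± 2718, Efemp2 (fibulin-4, needed for elastic fibre assembly) at 5205 ± 1042, Spp1 (osteopontin) at 3830 ± 1636, Thbs2 (thrombospondin-2) at 2241 ± 1161 and Mfap5 (a microfibril-associated protein) at 1658 ± 373.2. Dcn (decorin), Tnxb (tenascin-X), Fmod (fibromodulin) and Aspn (asporin) lay between 10 and 1000. The remaining 7 members averaged under 10, a few read pairs at most: Mfap4, Fbn2, Eln, Lum, Mfap2, Nid2 and Fbln1. These included elastin itself, at 2.66 ± 2.34, and lumican, at 1.52 ± 0.581, and Fbln1 exceeded the lowest value in 1 of 18 libraries only. Averaged over all 18 libraries, 24 members stood above the median of the tested genes, 590.3.

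Longer transcripts gather more reads, so levels of different genes were compared per kb of annotated exon. That length joins the exons of all transcripts of a gene and can exceed its longest transcript, as for Lamb1 (9917 against 5784 bases). Ranks by the longest transcript are not given and could differ. Fn1 remained first at 35187 signal units per kb, with Bgn next at 17555. Sparc at 10765 and Fbln2 at 10582 per kb followed, then Efemp1 at 8969, Thbs1 at 3872 and Nid1 at 2649. Short transcripts moved up: Spp1 ranked 17th by signal and 8th per kb, at 2324, and Mgp (matrix Gla protein, an inhibitor of calcification) ranked 22nd by signal and 9th per kb, at 2179. Over the untreated KDEL libraries Spp1 ran from 757 to 3443 and Mgp from 451 to 4084 per kb. Hspg2, with 14357 exonic bases, went from rank 6 to rank 12, at 1463 per kb.

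**Figure D1:**
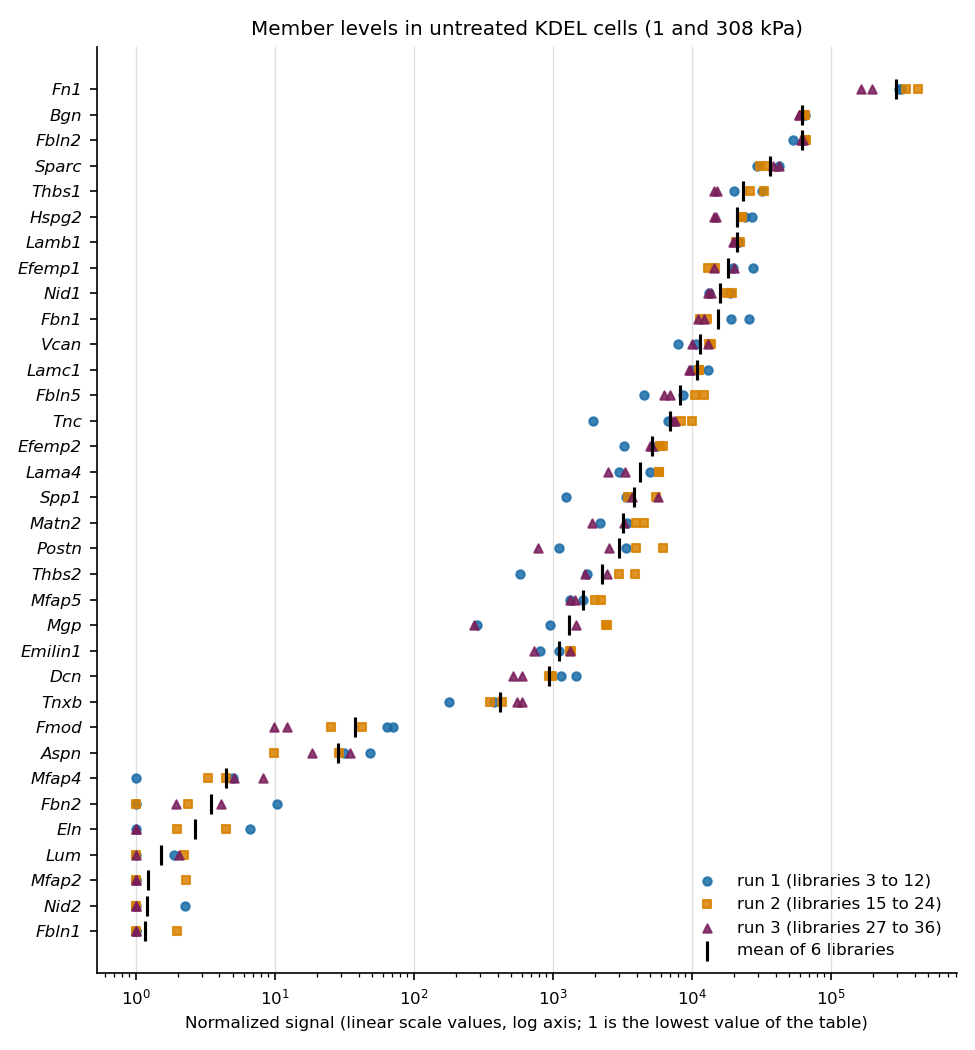
Normalized signal (log axis) of the 34 members in the 6 untreated KDEL libraries, with a mark for the mean and symbols for the run of library numbers. Fn1 stands at 165758 to 423086, 7 members average under 10.

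More members differed between the runs of library numbers than in any comparison of groups. The members together took 1.24% to 1.68% of the summed signal in the run 3 libraries of the 6 groups, against 2.03% to 2.58% in runs 1 and 2. Without Fn1 these ranges overlapped, at 0.747% to 1.02% and 0.955% to 1.27%. Within each group that has a library in every run, the run 3 library was still the lowest without Fn1. Fn1 gave 196621 and 165758 in the KDEL libraries of run 3 on 1 and 308 kPa, against 308677 and 321195 in run 1 and 346266 and 423086 in run 2. Its SUN1L libraries gave 224923 and 167141 in run 3, and 403124, 477571, 424784 and 446489 in runs 1 and 2. All 4 Fn1 values of run 3 were thus lower than all 8 of the other runs, at 0.480 times their level.

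A limma test of the run next to the 4 untreated groups, added after the data were seen, called 21 of the 33 tested members at an adjusted p under 0.05, where it called 39.9% of all tested genes. That test is of any difference among the 3 runs. Libraries 3, 7 and 8, low in division genes, all belong to run 1 and are in this fit. What part this had in the calls was not tested. Tested directly against the mean of runs 1 and 2, run 3 was lower for 12 members and higher for 1 at an adjusted p under 0.05, where 13.8% of all genes were lower and 15.9% higher. The largest of these differences were those of Fmod at −2.50 on the log2 scale, Thbs1 at −1.30, Postn (periostin, which links collagen and fibronectin) at −1.27 and Fn1 at −1.06, with adjusted p-values of 0.0021, 0.0043, 0.0067 and 0.0084. Dcn at −0.98, Lama4 (laminin alpha-4) at −0.87, Fbn1 at −0.84, Mfap5 at −0.61, Hspg2 at −0.61, Nid1 at −0.60, Matn2 at −0.45 and Lamc1 at −0.28 were lower as well. Tnxb was higher, at 0.95 with an adjusted p of 0.0067. Bgn and Fbln2 differed by −0.04 and 0.02, with adjusted p-values of 0.80 and 0.87.

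The median residual SD of the members, 0.62 on the log2 scale within groups, was 0.27 once the run was in the fit, while the median over all tested genes went from 0.33 to 0.22. No label says what a run is (a day, a passage or a shipment), and what part any of these had in the difference was not tested. Each comparison below was therefore also fitted with the run as a block, and both results are given where they differ in a call or a count. Across the 4 untreated groups the deviations of same-run libraries from their group means correlated at 0.104 to 0.673 over genes (18 pairs, median 0.364), and those of different runs at a median of −0.144. Deviations cancel within a group, so positive same-run values go with negative ones between runs and are no separate test of the runs.

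**Figure D2:**
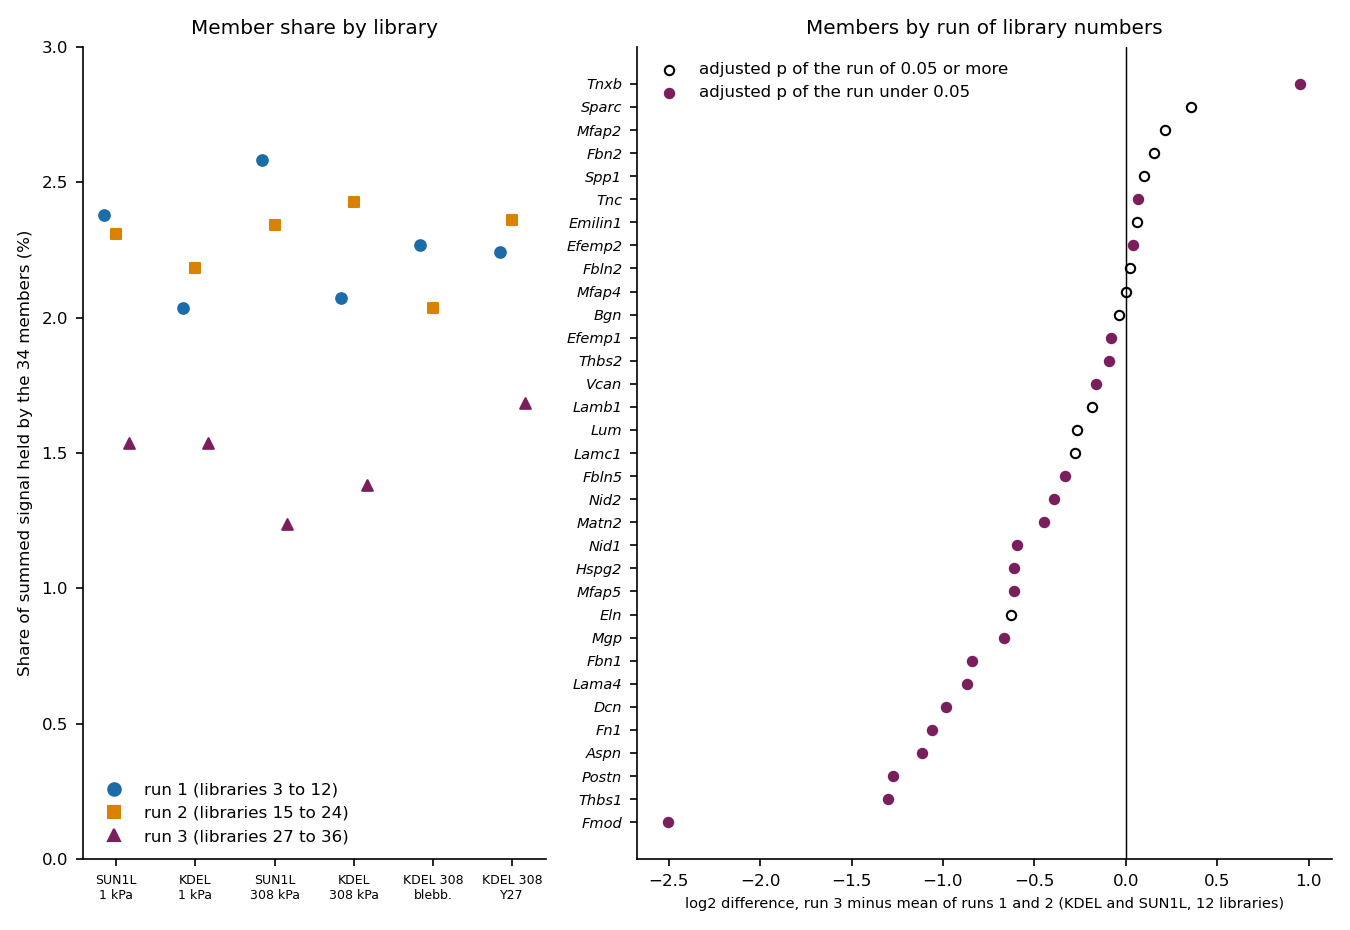
Left, share of the summed signal (%) held by the 34 members in each library by group; right, log2 difference between run 3 and the mean of runs 1 and 2 for the 33 tested members over 12 KDEL and SUN1L libraries, filled where the adjusted p of any difference among the 3 runs is under 0.05. All run 3 libraries lie at 1.68% or lower and all others at 2.03% or higher, and Fmod (−2.50) and Tnxb (0.95) are at the ends of the right panel.

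For the genes that the comparisons turn on, promoter sequence was taken from RefSeq (GRCm38.p6, 250 bases before to 50 after the transcript start). The table holds 29 promoters of 21 of the members, and Fbln5, Efemp1 and Sparc are shown because, of the members with an entry, they had the lowest p for SUN1L (Fbln5) and for Y27 (Sparc and Efemp1). Thbs1 and Lamc1 have no entry. Both strands were searched for the GC box GGGCGG, the TATA box TATAAA, the AP-1 site TGANTCA, the TEAD site GGAATG and the CArG box of serum response factor, and no match in the windows shown overlapped another. Matches are in capitals, and a match on the opposite strand appears as its reverse complement. In the positions of the deposited table (GRCm38), Fbln5 spans chr12:101746565-101819055 on the minus strand, and the start nearer to the 5′ end given in the deposited table was used (chr12:101819070-101819369). Efemp1 spans chr11:28853204-28926743 on the plus strand (promoter chr11:28852955-28853254) and Sparc chr11:55394500-55420080 on the minus strand (promoter chr11:55420031-55420330).
Fbln5: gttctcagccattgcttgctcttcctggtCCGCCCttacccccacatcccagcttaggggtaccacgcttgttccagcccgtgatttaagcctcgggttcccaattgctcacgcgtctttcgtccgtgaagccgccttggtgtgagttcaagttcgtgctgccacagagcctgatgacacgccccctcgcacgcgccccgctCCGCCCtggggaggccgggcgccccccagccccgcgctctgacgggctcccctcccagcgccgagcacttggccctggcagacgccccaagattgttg
Efemp1: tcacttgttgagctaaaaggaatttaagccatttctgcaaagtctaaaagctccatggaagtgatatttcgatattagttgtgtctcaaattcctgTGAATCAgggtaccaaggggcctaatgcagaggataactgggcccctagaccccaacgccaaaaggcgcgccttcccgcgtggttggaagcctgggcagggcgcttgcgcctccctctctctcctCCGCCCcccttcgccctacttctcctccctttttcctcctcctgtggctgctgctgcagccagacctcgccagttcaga
Sparc: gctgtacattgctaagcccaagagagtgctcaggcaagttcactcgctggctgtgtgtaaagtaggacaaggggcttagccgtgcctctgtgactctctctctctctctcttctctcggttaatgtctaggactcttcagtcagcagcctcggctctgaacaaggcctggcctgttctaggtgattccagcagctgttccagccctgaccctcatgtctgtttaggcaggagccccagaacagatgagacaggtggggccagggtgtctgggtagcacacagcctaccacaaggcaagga

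The Fbln5 window held GGGCGG at 221 and 48 bases before the start. The other Fbln5 promoter with an entry (chr12:101818435-101818734), not shown, matched none of the 5 motifs. The Efemp1 window held GGGCGG at 29 bases and TGANTCA at 154 bases before the start, and the Sparc window matched none of the 5 motifs. Over the members' 29 promoters GGGCGG occurred in 16 (55.2%), TATAAA in 6 (20.7%), TGANTCA in 2 (6.90%, those of Efemp1 and Tnxb), GGAATG in 2 (6.90%, Nid1 and Mfap2) and the CArG box in 0. Among all 32851 promoters of that length the shares were 35.7%, 13.6%, 7.81%, 14.7% and 1.63%. The TATAAA matches belonged to the genes Tnc, Postn, Thbs2, Spp1 and Aspn. These are matches of letters and say nothing about binding.

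The comparison of SUN1L with KDEL cells asks what disruption of the LINC complex does to these genes. No member was called on 1 kPa, on 308 kPa or over both rigidities by the rule used here, a 2-fold or larger difference together with a limma adjusted p under 0.05, and this rule called 0.0874%, 0.0624% and 0.181% of the tested genes. The members nearest to a call were Fbln5 and Thbs1, both with less signal in SUN1L cells.

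Fbln5 (fibulin-5, which tethers elastin to microfibrils and to cells) gave 3352, 6731 and 3699 in SUN1L cells on 1 kPa and 8594, 10515 and 6306 in KDEL cells. On 308 kPa it gave 3290, 6744 and 3885 in SUN1L cells and 4535, 12249 and 6917 in KDEL cells. The ranges overlapped at each rigidity, but SUN1L was lower than KDEL within each of the 3 runs on both gels, by 0.46 to 1.36 on the log2 scale. The mean difference over both rigidities was −0.82 ± 0.28 (SE), or 0.566 times the KDEL level, with an adjusted p of 0.61. With the block on runs the same difference had an SE of 0.13 and an adjusted p of 0.034, short of the 2-fold limit. It was the only member with an adjusted p under 0.05 in that fit, which placed 0.593% of the tested genes there. Without libraries 3, 7 and 8 the difference was −0.79, and −0.78 with the block, with adjusted p-values of 0.57 and 0.019.

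Thbs1 gave 16973, 16526 and 5847 in SUN1L and 31988, 26337 and 14358 in KDEL cells on 1 kPa. On 308 kPa the values were 18068, 17429 and 4776 in SUN1L and 20111, 33220 and 15073 in KDEL cells. In each group the library of run 3 was the lowest, the ranges of the 2 cell lines overlapped, and SUN1L was lower in all 6 comparisons within a run. The difference over both rigidities was −0.94 ± 0.41 (SE), with an adjusted p of 0.73 and, with the block, of 0.058.

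These were the 2 members at an unadjusted p under 0.05 over both rigidities, where 6.80% of all tested genes were, and 1 to 3 members with a library left out. On 1 kPa it was Fbln5 alone (4.54% of all genes) and on 308 kPa no member (2.53%). Counts with a library left out, here and below, have no share of all genes beside them and are not read against one. With the block the counts were 4, 5 and 8 members of 33 on 1 kPa, on 308 kPa and over both, against 14.1%, 5.92% and 15.7% of all genes. Members outside the rule for printed genes, namely Lama4, Tnxb, Postn, Mgp, Dcn and Fmod, are given with values chosen after these were seen. The 8 were Fbln5, Thbs1, Lama4 (−0.53, adjusted p 0.096), Fmod, Postn, Fbln2 and Lamb1, all lower in SUN1L cells, and Tnxb (0.59, adjusted p 0.16), which was higher.

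For Fbln2, and for no other member, the groups were apart at both rigidities, and no share of all genes apart at both is given. Its signal was 57033, 56733 and 60388 in SUN1L and 64213, 66129 and 63277 in KDEL cells on 1 kPa. On 308 kPa it was 51122, 47596 and 49448 against 53288, 65151 and 61007. All SUN1L values lay under all KDEL values on each gel, by −0.21 ± 0.12 (SE) over both, with an adjusted p of 0.81. Groups were also apart on 1 kPa for Bgn and Lum (lower in SUN1L) and Mfap2 (higher), and on 308 kPa for Lamb1 (lower) and Fbn2 (higher), where Lum, Mfap2 and Fbn2 sat within a few read pairs of the lowest value. That makes 3 members lower and 1 higher without overlap on 1 kPa (7.86% and 6.65% of all genes), and 2 lower and 1 higher on 308 kPa (2.33% and 1.95%).

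Bgn gave 57674, 53764 and 56096 in SUN1L and 65115, 63956 and 58711 in KDEL cells on 1 kPa, with 59772, 51289 and 59479 against 63286, 65531 and 58696 on 308 kPa. The groups overlapped on the stiff gel only. The mean difference over both was −0.15 ± 0.12 (SE), with an adjusted p of 0.89. Lamb1 gave 20890, 21031 and 17721 in SUN1L and 21315, 22047 and 20118 in KDEL cells on 1 kPa, and 19536, 19135 and 15880 against 21785, 20685 and 19828 on 308 kPa. It was lower in SUN1L cells in every run on both gels, at −0.15 ± 0.10 over both.

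Sparc gave 25331, 32589 and 35436 in SUN1L and 42062, 34368 and 38382 in KDEL cells on 1 kPa, with 22714, 31072 and 40447 against 29411, 30737 and 42516 on 308 kPa. The groups overlapped on both gels, at −0.23 ± 0.17 (SE) over both. Hspg2 gave 24010, 21438 and 18420 in SUN1L and 27090, 22799 and 14934 in KDEL cells on 1 kPa, with 21271, 20340 and 12794 against 24178, 22646 and 14385 on 308 kPa. Its SUN1L and KDEL values interleaved, at −0.08 ± 0.20, and run 3 was the lowest in each group. Lamc1 gave 9647, 11463 and 9503 in SUN1L and 13098, 11349 and 9555 in KDEL cells on 1 kPa, with 9819, 11293 and 7477 against 10073, 11321 and 9771 on 308 kPa, at −0.14 ± 0.12 and again with overlap.

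Fn1 pointed the other way, with more signal in SUN1L cells within all 3 runs on both gels, by 0.01 to 0.57 on the log2 scale. The difference was 0.29 ± 0.57 (SE) on 1 kPa and 0.22 ± 0.57 on 308 kPa, with adjusted p-values of 0.95 and 1. On 308 kPa it turned to −0.05 without library 7 and to −0.16 without library 32, fits without the block in which a run then lacks its partner library. The other members in one direction within every run on both gels were Fbn2 (higher) and Lama4, Lamb1, Fbln2 and Mfap5, beside Fbln5 and Thbs1 (all lower). This gives 2 members higher and 6 lower in every run, where 4.06% and 7.27% of all genes were.

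Read by role, the members were more often lower than higher in SUN1L cells, by small amounts. Over both rigidities 23 of 33 had less signal in SUN1L cells, with a median of −0.15, where the median of all tested genes was −0.02. The median was −0.17 for 12 fibronectin and elastic fibre genes (8 lower), −0.21 for 9 matricellular genes (7 lower), −0.08 for 7 proteoglycans (4 lower) and −0.15 for 5 basement membrane genes (4 lower). Single members lay between −0.95 for Fmod, with 2.14 to 171.0 signal units over all libraries, and 0.81 for Fbn2, with 1 to 16.8.

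**Figure D3:**
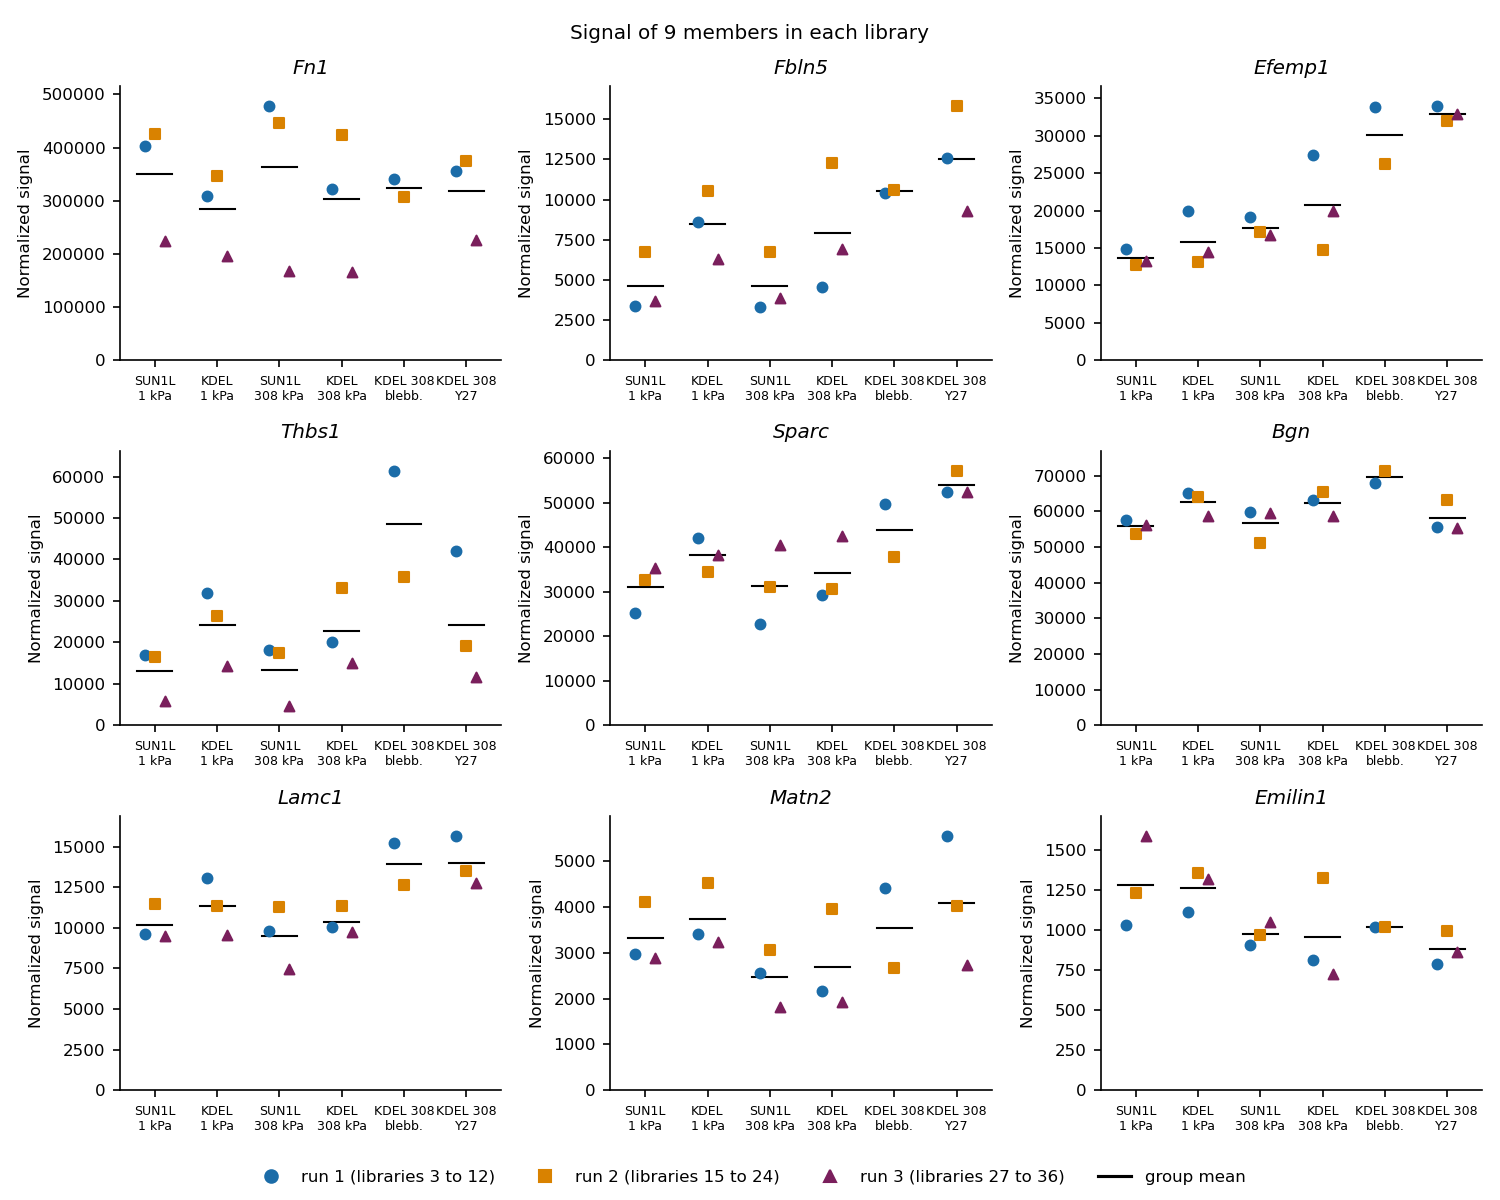
Normalized signal (linear axes from 0) of 9 members in each library of the 6 groups, with bars for group means and symbols for runs. Fbln5 and Thbs1 symbols of each run sit lower in SUN1L than in KDEL cells on the same gel, and the 3 Y27 values of Efemp1 (32000 to 33917) and Sparc (52546 to 57115) lie above all untreated KDEL values on 308 kPa.

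The comparison of 308 kPa with 1 kPa asks which members follow gel rigidity. None was called in KDEL cells, in SUN1L cells or over both, and neither was any other gene (0% in each of the 3 comparisons). At an unadjusted p under 0.05 stood 0 members in KDEL cells (1.37% of all genes), 0 in SUN1L cells (1.93%) and 3 over both cell lines (2.91%). With single libraries left out, the count over both lines ran from 0 (without library 8) to 6 (without library 20), and that in KDEL cells from 0 to 5 (without library 20). The 3 were Emilin1 and Matn2 with less signal on the stiff gel and Efemp1 with more, all at an adjusted p of 1.

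Efemp1 gave 19931, 13088 and 14441 in KDEL cells on 1 kPa and 27451, 14729 and 19973 on 308 kPa. In SUN1L cells it gave 14860, 12731 and 13281 on 1 kPa and 19093, 17108 and 16742 on 308 kPa. The SUN1L groups did not overlap, the KDEL groups did, and the stiff gel was higher within every run of both lines, by 0.17 to 0.47 on the log2 scale. The mean difference was 0.37 ± 0.16 (SE), and ± 0.10 with the block on runs, where the adjusted p was 0.42.

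Matn2 (matrilin-2, an adaptor of filamentous matrix networks) gave 3400, 4528 and 3243 in KDEL cells on 1 kPa and 2174, 3956 and 1927 on 308 kPa. Its SUN1L values were 2966, 4104 and 2894 on 1 kPa and 2561, 3065 and 1806 on 308 kPa. It was lower on the stiff gel within every run of both lines, at −0.48 ± 0.20 (SE). Emilin1 (an elastin-associated glycoprotein) gave 1112, 1357 and 1320 against 812.2, 1326 and 727.3 in KDEL cells, and 1030, 1230 and 1584 against 906.2, 970.7 and 1050 in SUN1L cells, from the soft to the stiff gel. The difference was −0.41 ± 0.16 (SE), again lower in all 6 comparisons within a run. With the block the adjusted p-values were 0.29 for Matn2 and 0.46 for Emilin1.

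With the block on runs, 6 members in KDEL cells, 5 in SUN1L cells and 8 over both lines were at an unadjusted p under 0.05, against 5.37%, 5.52% and 8.70% of all genes. The 8 were Emilin1, Matn2, Postn, Fbn2, Mgp, Efemp2 and Dcn, lower on 308 kPa, and Efemp1, higher, and their adjusted p-values ran from 0.29 to 0.57. Postn and Mgp had the largest of these differences, −0.99 and −1.03 over both lines. Postn gave 3382, 6168 and 2546 in KDEL cells on 1 kPa and 1108, 3970 and 784.9 on 308 kPa, and 1717, 3205 and 1350 against 1739, 2217 and 477.8 in SUN1L cells. It was lower on the stiff gel in every run of KDEL cells and in 2 of 3 runs of SUN1L cells.

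Groups of the soft and the stiff gel rarely stood apart. Lum was lower without overlap in KDEL cells, listed at 1 in all 3 libraries on 308 kPa, and in SUN1L cells Eln and Fbln2 were lower and Efemp1 higher. These are 0 members higher and 1 lower in KDEL cells (2.13% and 2.65% of all genes), and 1 higher and 2 lower in SUN1L cells (1.69% and 3.08%). Within every run of both lines 1 member, Efemp1, was higher and 6 were lower on 308 kPa (2.53% and 4.08% of all genes): Dcn, Matn2, Efemp2, Hspg2, Emilin1 and Fbln2. The abundant members showed little: Fn1 differed by −0.0020 ± 0.40 (SE) over both lines, Bgn by 0.01 ± 0.12, Lamb1 by −0.08 ± 0.10, Sparc by −0.09 ± 0.17, Hspg2 by −0.17 ± 0.20 and Fbln2 by −0.17 ± 0.12.

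By role, all 9 matricellular genes, all 5 basement membrane genes, 6 of 7 proteoglycans and 8 of 12 fibronectin and elastic fibre genes had less signal on the stiff gel over both lines. The class medians were −0.25, −0.13, −0.23 and −0.09, and the median of all tested genes was −0.01. In the matricellular class 9 of 9 were lower in KDEL cells, with a median of −0.50, and 6 of 9 in SUN1L cells, with a median of −0.01. In run 1 the division genes were high in the KDEL library on 1 kPa (12.3) and low in that on 308 kPa (9.51), and the part of this difference in these values was not tested. Without libraries 3, 7 and 8 the differences were −0.41 for Emilin1, −0.48 for Matn2, 0.26 for Efemp1 and −1.05 for Postn.

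Whether the rigidity response differs between the cell lines was tested as an interaction. No member and no other gene passed the Bonferroni-corrected limit of 0.05 (0%), and at an unadjusted p under 0.05 stood 0 members (0.905% of all genes), also with the block (2.08%). The estimate was above 0, a less negative or more positive response in SUN1L than in KDEL cells, for 23 of 33 members and for 9 of 9 matricellular genes. The median of the latter was 0.46 on the log2 scale, against −0.0039 for all tested genes, and the estimates ran from 0.05 ± 0.83 (SE) for Thbs1 to 0.71 ± 1.16 for Mgp. The KDEL responses entering these estimates were below 0 for all 9 in run 1 only, where the stiff library is library 8. With the block the SE was smaller than the estimate for Postn (0.64 ± 0.43), Mgp (0.71 ± 0.56), Thbs2 (0.58 ± 0.44), Tnc (0.49 ± 0.48) and Tnxb (0.36 ± 0.32), each at an adjusted p of 0.99. The median over all members, 0.07, ran from −0.08 without library 19 to 0.30 without library 31.

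**Figure D4:**
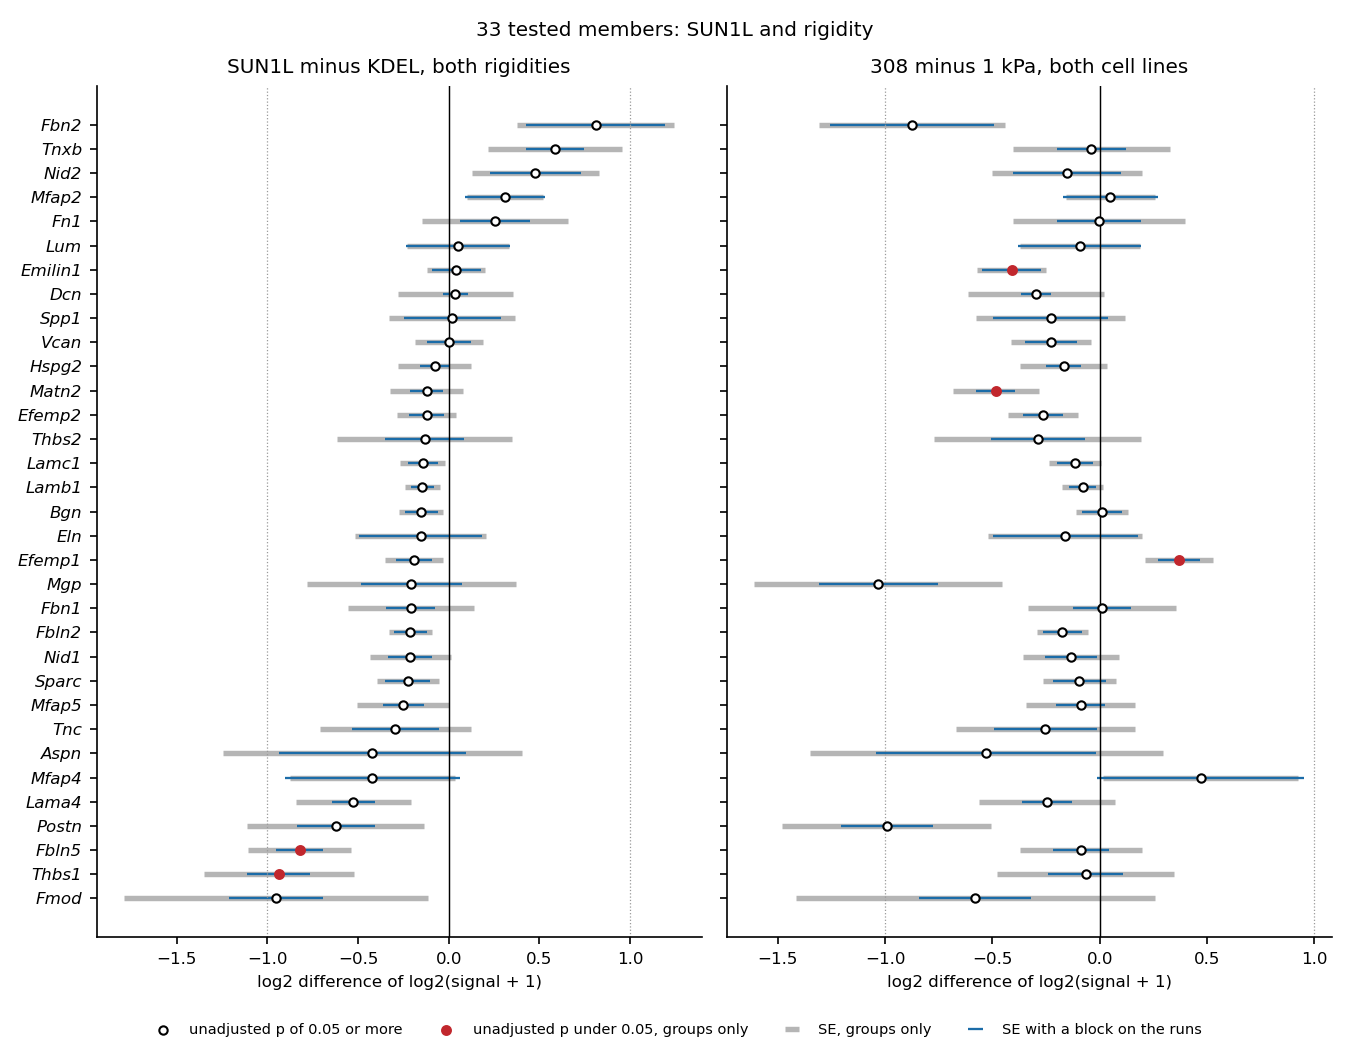
log2 differences of the 33 tested members, SUN1L minus KDEL over both rigidities (left) and 308 minus 1 kPa over both lines (right), with SE bars without (grey) and with (blue) a block on runs, and filled points at an unadjusted p under 0.05. Fbln5 (−0.82) and Thbs1 (−0.94) are filled on the left and Emilin1 (−0.41), Matn2 (−0.48) and Efemp1 (0.37) on the right, and the blue bars are shorter for most members.

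The comparison of inhibitor-treated with untreated KDEL cells on 308 kPa asks how the members differ when contraction is inhibited. Both inhibitors share the 3 untreated libraries, which are also those of the SUN1L comparison on 308 kPa. Run 3 has a library of the untreated and of the Y27 group but none of blebbistatin. Without the block on runs, differences of blebbistatin and of run 3 therefore cannot be told apart. No member and no other gene was called for Y27, for blebbistatin or between them (0% in each). At an unadjusted p under 0.05 stood 3 members for Y27 (5.80% of all genes), 1 for blebbistatin (3.04%) and 0 between the inhibitors (2.32%). They were Sparc, Lamc1 and Efemp1 for Y27 and Lamc1 for blebbistatin, all higher with the inhibitor. With single libraries left out, the count ran from 2 (without library 32) to 8 (without library 20) for Y27, and from 0 (without library 10) to 7 (without library 20) for blebbistatin.

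Efemp1 gave 33917, 32000 and 32925 with Y27 and 33877 and 26185 with blebbistatin, against 27451, 14729 and 19973 without. All Y27 values lay above all untreated ones, while one blebbistatin value fell among them. The difference was 0.72 ± 0.24 (SE) for Y27 and 0.57 ± 0.27 for blebbistatin, with adjusted p-values of 0.80 and 1. Without library 8 the Y27 difference was 0.94 and the blebbistatin difference 0.80.

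Sparc gave 52546, 57115 and 52547 with Y27, 49823 and 37881 with blebbistatin and 29411, 30737 and 42516 without. The Y27 group stood apart from the untreated one, at 0.68 ± 0.20 (SE) or 1.60 times its level, with an adjusted p of 0.79. The blebbistatin difference was 0.36 ± 0.22.

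Lamc1, the gamma chain shared by most laminins, gave 15637, 13494 and 12779 with Y27, 15247 and 12628 with blebbistatin and 10073, 11321 and 9771 without. Neither treated group overlapped the untreated one. The differences were 0.42 ± 0.13 (SE) for Y27 and 0.42 ± 0.14 for blebbistatin, with adjusted p-values of 0.79 and 1. Its partner Lamb1 did not go along, with 20213, 20228 and 16057 under Y27 and 21379 and 19187 under blebbistatin against 21785, 20685 and 19828.

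With Y27, 5 members were higher without overlap (4.95% of all genes) and 0 lower (3.62%): Lamc1, Efemp1, Sparc, Dcn and Fbn2. With blebbistatin 7 were higher (7.20%) and 0 lower (5.85%): Lamc1, Fmod, Fbn2, Thbs1, Hspg2, Mfap5 and Bgn. Within every run 16 members were higher and 2 lower with Y27, against 14.0% and 11.3% of all genes. The 16 were 7 fibronectin and elastic fibre genes (Efemp1, Efemp2, Fbln2, Fbln5, Fbn1, Fbn2, Mfap5), 4 proteoglycans (Hspg2, Dcn, Fmod, Aspn), 3 matricellular genes (Sparc, Matn2, Tnxb) and 2 of basement membranes (Lamc1, Lama4). The 2 lower were Lamb1 and Bgn.

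With the block on runs 9 members were at an unadjusted p under 0.05 for Y27 (8.50% of all genes), 3 for blebbistatin (4.32%) and 1 between them (2.87%). The 9 were Sparc, Lamc1, Efemp1, Mfap5, Dcn, Lama4, Fbn1, Fmod and Aspn, all higher with Y27, with adjusted p-values of 0.55 to 0.59. Dcn, which is low in these cells, gave 4881, 1717 and 1458 with Y27, 2983 and 691.2 with blebbistatin and 1147, 943.5 and 517.3 without, a Y27 difference of 1.48 ± 0.69 (SE). Fmod gave 112.6, 171.0 and 27.96 with Y27, 137.1 and 104.8 with blebbistatin and 71.2, 25.6 and 9.80 without. Both blebbistatin values of Fmod lay above the untreated ones, the Y27 values overlapped them, and the library of run 3 was the lowest in each of these groups that has one.

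Without the block on runs, Thbs1 had the widest gap between the inhibitors among the members printed by library. The low Eln and Aspn differed more, by 1.74 ± 0.82 (SE) and 1.20 ± 0.95, both higher with Y27. Thbs1 gave 61267 and 35853 with blebbistatin, 41957, 19119 and 11696 with Y27 and 20111, 33220 and 15073 without. Both blebbistatin values lay above all untreated ones, and the Y27 values spanned them. The lowest Y27 and untreated values, 11696 and 15073, came from run 3, which has no blebbistatin library. Y27 was lower than blebbistatin in both other runs. The width of the gap without the block and the lower signal of run 3 cannot be told apart. The blebbistatin difference was 1.12 ± 0.59 (SE), or 0.78 with the block, and the Y27 difference −0.03 ± 0.53. The blebbistatin difference was 0.37 with the empty vector library counted as a blebbistatin library. The direct difference of Y27 from blebbistatin was −1.15 ± 0.59, with an adjusted p of 1.

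Fbln5 gave 12584, 15806 and 9283 with Y27 and 10423 and 10614 with blebbistatin, against 4535, 12249 and 6917 without. Y27 was higher within every run, at 0.75 ± 0.37 (SE), with overlapping ranges and an adjusted p of 0.83. Fn1 gave 355692, 374809 and 226780 with Y27 and 340088 and 307582 with blebbistatin, against 321195, 423086 and 165758, at 0.14 ± 0.50 and 0.20 ± 0.56. The Fn1 difference for Y27 turned to −0.24 without library 32. Hspg2 gave 24416, 31231 and 18665 with Y27 and 28709 and 28937 with blebbistatin, against 24178, 22646 and 14385 without. Both blebbistatin values lay above all untreated ones, and so did the Y27 values 24416 and 31231. The other Y27 value, 18665, came from the run that has no blebbistatin library, where the untreated value was 14385. The Hspg2 overlap with Y27 alone therefore cannot be read as a difference between the inhibitors.

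Bgn gave 55639, 63110 and 55378 with Y27 and 67869 and 71265 with blebbistatin, against 63286, 65531 and 58696 without. It was lower with Y27 within every run and higher without overlap with blebbistatin, by −0.11 ± 0.16 and 0.16 ± 0.17 (SE), and the direct difference of −0.26 ± 0.17 had an adjusted p of 1. Fbln2 gave 58560, 85214 and 65713 with Y27 and 62523 and 69362 with blebbistatin, against 53288, 65151 and 61007, at 0.21 ± 0.20 and 0.14 ± 0.23. Matn2 gave 5536, 4010 and 2723 with Y27 and 4414 and 2661 with blebbistatin, and Emilin1 784.9, 994.8 and 865.1 with Y27 and 1017 and 1021 with blebbistatin, both overlapping the untreated values.

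By role, 11 of 12 fibronectin and elastic fibre genes, 6 of 7 proteoglycans, 3 of 5 basement membrane genes and 4 of 9 matricellular genes had more signal with Y27. The class medians were 0.55, 0.37, 0.15 and −0.03, against 0.0057 for all tested genes. With blebbistatin the counts were 10, 5, 3 and 6, and the medians 0.32, 0.29, 0.25 and 0.28. These are values without the block, and the blebbistatin group alone lacks a library of run 3. Library 8, an untreated control, is low in division genes and all inhibitor libraries are high in them, at 11.9 or more. Without it 7 members were at an unadjusted p under 0.05 for Y27 and 4 for blebbistatin, and no member was called. The share of all genes in that fit is not given, so whether these counts are particular to the members cannot be told. What part cell division had in these values was not tested.

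**Figure D5:**
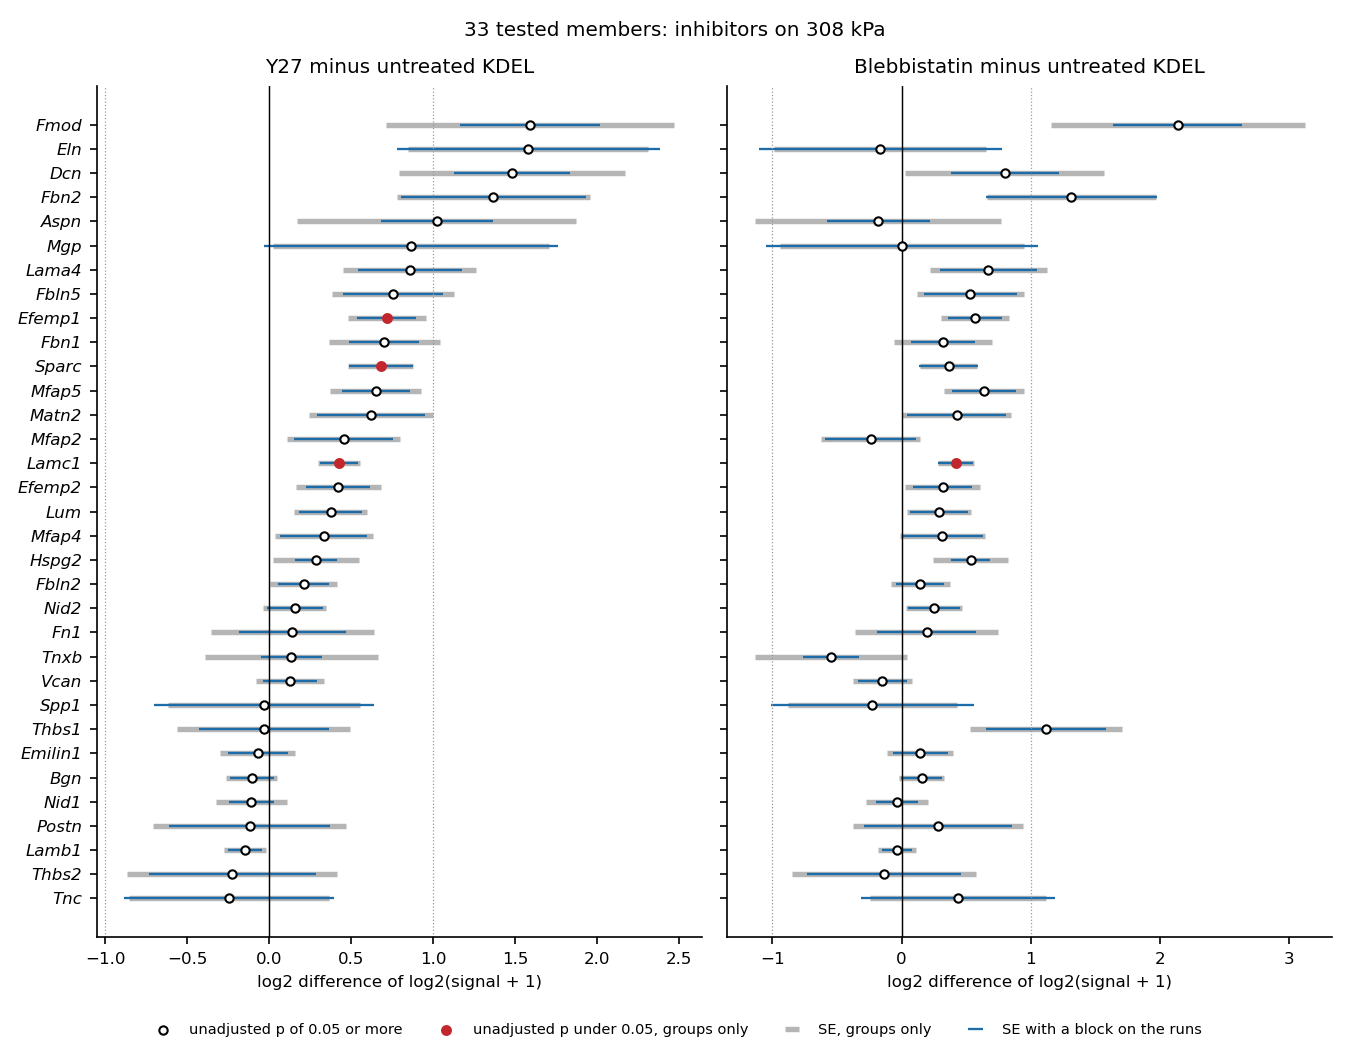
log2 differences of the 33 tested members on 308 kPa, Y27 minus untreated (left) and blebbistatin minus untreated KDEL (right), with SE bars without (grey) and with (blue) a block on runs, and filled points at an unadjusted p under 0.05. Sparc (0.68), Lamc1 (0.42) and Efemp1 (0.72) are filled on the left and Lamc1 (0.42) on the right, and most points of both panels lie right of 0.

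Other matrix genes and the enzymes that build the sugar chains of proteoglycans were read from 3 lists: 58 further matrix glycoproteins (51 tested), 23 further matrix proteoglycans (18 tested) and 32 genes of glycosaminoglycan synthesis (30 tested). None was called in any of the 10 comparisons. Genes named from these lists were chosen after their values were seen. Nearest was Lamb3 (laminin beta-3, a chain of epithelial basement membranes), higher in SUN1L cells over both rigidities by 1.54 ± 0.26 (SE) with an adjusted p of 0.0501, and called with the block at an adjusted p of 0.0095. In that comparison 4 further glycoproteins (Lamb3, Papln, Lama5 and Fras1) and 1 further proteoglycan (Acan) were higher and 3 enzymes (Chst14, Csgalnact2 and Hs6st2) lower at an unadjusted p under 0.05, where 6.80% of all genes were. Of these, Papln, Fras1 and Acan averaged only 2.88, 4.58 and 5.87 signal units over all libraries, a few read pairs. On the stiff gel over both lines 4 glycoproteins and 4 enzymes were lower at that level (2.91% of all genes in either direction), among them Has2 (hyaluronan synthase 2) at −0.75 ± 0.26 and Chpf (a chondroitin-polymerizing factor) at −0.25 ± 0.07. With Y27, 4 glycoproteins, 1 proteoglycan and 3 enzymes were higher and 3 glycoproteins lower at that level (5.80% of all genes). Those lower were Lama5 at −0.83 ± 0.21, Lama3 at −1.17 ± 0.42 and Ecm2 at −0.89 ± 0.29, of which Lama3 and Ecm2 averaged only 12.4 signal units each. Prelp (a small leucine-rich proteoglycan like Fmod) was higher by 2.01 ± 0.37 and Chpf by 0.51 ± 0.13, both at adjusted p-values of 0.74 or more. The list medians of these comparisons lay between −0.17 and 0.18.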

How the data were processed

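The authors sequenced poly(A) RNA as paired ends; the submitters' processing notes name TopHat2 2.0, SAMtools and FastQC. The deposited values are a normalized signal per gene and library, summarized by the authors in AvadisNGS after scaling by trimmed means of M-values. The mm9 build is named in the notes, but the positions in the deposited table are those of GRCm38. Each column was matched to its sample by the library number in its heading, and the column numbered 35 to library 34 by its heading. Read pairs were estimated from the step between low values, where 45.1% to 48.5% of values were whole multiples within 0.05, so no counts were recovered and no count test was run.

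Genes above the lowest value of 1 in at least 3 libraries were tested with limma 3.58.1 (R 4.3.3, moderated test with a trend, two-sided) on log2(signal + 1), a scale that understates differences of low genes. The 4 untreated groups entered 1 fit, and the inhibitor groups with untreated KDEL cells on 308 kPa another. Genes were called at 2-fold or more where the p adjusted after Benjamini-Hochberg was under 0.05, and in the interaction at a Bonferroni-corrected p under 0.05. Exonic lengths came from GENCODE M1 and promoters from RefSeq (GRCm38.p6). The model was tested on simulated data.

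The members and the lists were chosen with earlier results of these data known. Library values are printed for the 8 members highest in untreated KDEL cells, for called members, and for members with an unadjusted p under 0.05 in a comparison and a mean above that of the median tested gene. Other members are given by ranges and counts. The runs were set by library number. Every same-run correlation of deviations exceeded 0.1, though the highest of different runs, 0.141, did too, so these values do not decide whether the runs pair the samples. Alternatives were other pseudocounts (0.1 and 8), filters, quantile normalization, the block on runs, a single fit of all 18 libraries, an untrended variance prior, the empty vector library as blebbistatin, and each library left out.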

Additional observations from a re-analysis of the deposited data

Results flagged for a closer look

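The empty vector library on 308 kPa, whose inhibitor labels contradict each other and which entered no comparison, had more signal than all 3 untreated KDEL libraries on that gel for 4 members. Sparc gave 44755 against at most 42516, Efemp1 29176 against at most 27451, Lamc1 13782 against at most 11321 and Tnxb 896.3 against at most 603.5. Of the 26 members above the floor of 3 read pairs (6.64 signal units) in it, 10 lay under and 12 within the untreated range. The library belongs to run 3 and has no replicate.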

How the results depend on the processing

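No member was called in any comparison under the filters, pseudocounts, quantile normalization, fit without the trend, fit of all 18 libraries or any left-out library. The block on runs (replicate block) gave 0 called members as well. With the adjusted p alone and that block, a rule added after the data were seen, the count was 1 over both rigidities for SUN1L, namely Fbln5. Leaving out single libraries turned the sign of 3 named values and of 4 member medians, none of them called. The medians ran from −0.24 to 0.08 for SUN1L on 308 kPa, −0.34 to 0.05 for rigidity in SUN1L cells, −0.08 to 0.30 for the interaction and −0.13 to 0.19 for Y27 against blebbistatin. The Fn1 difference for SUN1L on 308 kPa ran from −0.16 to 0.71, at −0.16 without the KDEL library 32 and −0.05 without the SUN1L library 7. That of Lama4 ran from −0.76 to 0.05, at 0.051 without the SUN1L library 31. Fn1 with Y27 ran from −0.24 to 0.43, at −0.24 without library 32. The cause was not tested. Over both rigidities Fbln5 ran from −0.99 to −0.63 and Thbs1 from −1.11 to −0.62 for SUN1L. For rigidity Efemp1 ran from 0.26 to 0.48, Matn2 from −0.64 to −0.38 and Emilin1 from −0.54 to −0.33. With Y27 Sparc ran from 0.58 to 0.85, Lamc1 from 0.34 to 0.49 and Efemp1 from 0.49 to 0.94. Groups of 2 or 3 libraries limit every test, and depth leaves 7 members within a few read pairs of the lowest value.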
